A study of Mus musculus with 16 samples.

Results

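The forkhead genes described here are Foxc1, Foxc2, Foxd1, Foxd3, Foxf1, Foxf2, Foxj1, Foxl2 and Foxq1, 9 of the 26180 gene symbols with a curated RefSeq start site on the mouse genome GRCm38. They were chosen by name as transcription factors that act in developing lineages. The rule uses no peak value, but it was set with earlier results of these data known. Peaks of H3K4me3, H3K27me3 and Suz12 were read from 2500 bp upstream to 2500 bp downstream of the start site, called here the start-site window, and over the gene body. Each of the 9 genes has 1 curated start site, so each window spans the same number of bases.

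Both cultures were R1 mouse embryonic stem cells (ESCs) that carry MycT58A-ER, a Myc protein fused to the estrogen receptor's ligand-binding domain and switched on by 4-hydroxytamoxifen (OHT). LIF-ESCs received 100 units per ml of LIF, the cytokine that maintains mouse ESCs, and no OHT. Myc-ESCs received 50 nM OHT and no LIF. All were kept on gelatin without feeder cells in serum medium with vitamin C, and the study's methods describe a clonal line, so both cultures share its history. The labels name 16 libraries, of which 4 are inputs and 2 stand behind each pair of culture and antibody, but the authors deposited 1 peak list per pair. The files do not give the depth of the libraries or their spread, so every difference below compares 1 list with another and carries no test. Pou5f1, Sox2 and Nanog, which maintain pluripotency, each had 1 H3K4me3 peak in both cultures and no H3K27me3 or Suz12 peak. This is no check of the cell label, as 62.2% (LIF-ESCs) and 63.3% (Myc-ESCs) of all genes had H3K4me3 at the start site. The peak lists hold no expression values.

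Forkhead factors bind DNA through a shared winged-helix domain, and many of them direct the formation of particular organs and are silent in ESCs. Polycomb repressive complex 2 (PRC2), of which Suz12 is a core subunit, trimethylates histone H3 at lysine 27 and holds such genes repressed. Where H3K27me3 coincides with H3K4me3, the mark of CpG-rich start sites, a promoter is called bivalent, a state described for many developmental regulators in ESCs.

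Suz12 was already at the forkhead genes in LIF-ESCs, whereas H3K27me3 peaks at most of them were called only in Myc-ESCs. Suz12 lay in the start-site window of 9 of 9 genes in LIF-ESCs, against 12.1% of all genes, and of 8 of 9 in Myc-ESCs, against 14.6%. H3K27me3 lay in the windows of 2 of 9 genes in LIF-ESCs, Foxc2 and Foxf1, against 3.82% of all genes. In Myc-ESCs it lay in the windows of 8 of 9, all but Foxj1, against 10.7%. Thus 6 genes, Foxc1, Foxd1, Foxd3, Foxf2, Foxl2 and Foxq1, had the mark in Myc-ESCs only, against 7.65% of all genes, and none had it in LIF-ESCs only, against 0.733%. No gene had Suz12 in Myc-ESCs only, against 3.82%. The Myc-ESC H3K27me3 list is the longer, and the part of depth in this was not tested. When it was shortened to its 3120 top-scoring peaks, the length of the LIF-ESC list, 6 of the 8 genes kept the mark and Foxf2 and Foxq1 did not. The genes marked in Myc-ESCs only were then 4 in place of 6. The share of all genes was not recounted with the shortened list. H3K4me3 was found at 8 of 9 in each culture, all but Foxf2, against 62.2% (LIF-ESCs) and 63.3% (Myc-ESCs) of all genes. None had it in Myc-ESCs only or in LIF-ESCs only, against 2.35% and 1.21%. Over the gene bodies the picture was similar. H3K4me3 lay over 7 of 9 bodies under LIF and 8 in Myc-ESCs (64.2% and 65.3% of all genes), and Suz12 over 9 and 8 (12.0% and 14.6%). H3K27me3 lay over 3 bodies in LIF-ESCs, with Foxf2 as the addition to Foxc2 and Foxf1, and over 8 in Myc-ESCs (3.79% and 10.7%).

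Genes that carry Suz12 in both cultures are the closer comparison, and there are 2822 of them, 8 being forkhead genes of this group. They are alike in the presence of Suz12 but not in its amount. Suz12 covered a median of 3062.5 bp (LIF-ESCs) and 4417 bp (Myc-ESCs) in the windows of the 8. The medians were 1140.5 and 1810.5 bp over the 2196 such genes with 1 start site. Of these 8, H3K27me3 marked Foxc2 and Foxf1 alone in LIF-ESCs and all 8 in Myc-ESCs, so 2 and 8 genes, against 28.2% and 72.0% of the 2822 genes. All 6 of the 6 that lacked the mark in LIF-ESCs had it in Myc-ESCs, against 64.4% of 2026 such genes. H3K4me3 was present in both cultures at 7 of the 8, against 92.0%. The most frequent combination of calls was H3K4me3 and Suz12 in both cultures with H3K27me3 in Myc-ESCs only. It was shared by 5 of the 9, Foxc1, Foxd1, Foxd3, Foxl2 and Foxq1, and by 4.68% of all genes or 43.4% of those with Suz12 in both cultures. The combination was picked from the calls of these 9 genes, so its share among them is high by construction and shows no excess. For Suz12 in each culture and H3K27me3 in Myc-ESCs, the forkhead genes stood well above the share of all genes. The H3K27me3 count of LIF-ESCs rests on Foxc2 and Foxf1, which start 31785 bp apart. It was 0 without peaks scoring below 100 and 0 with a window of 1000 bp on either side. Against the Suz12-bound genes, only the H3K27me3 calls of Myc-ESCs lay above the share, and they rest on 8 genes at most. The calls of H3K27me3 in LIF-ESCs and of H3K4me3 in both cultures lay near it.

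**Figure D1:**
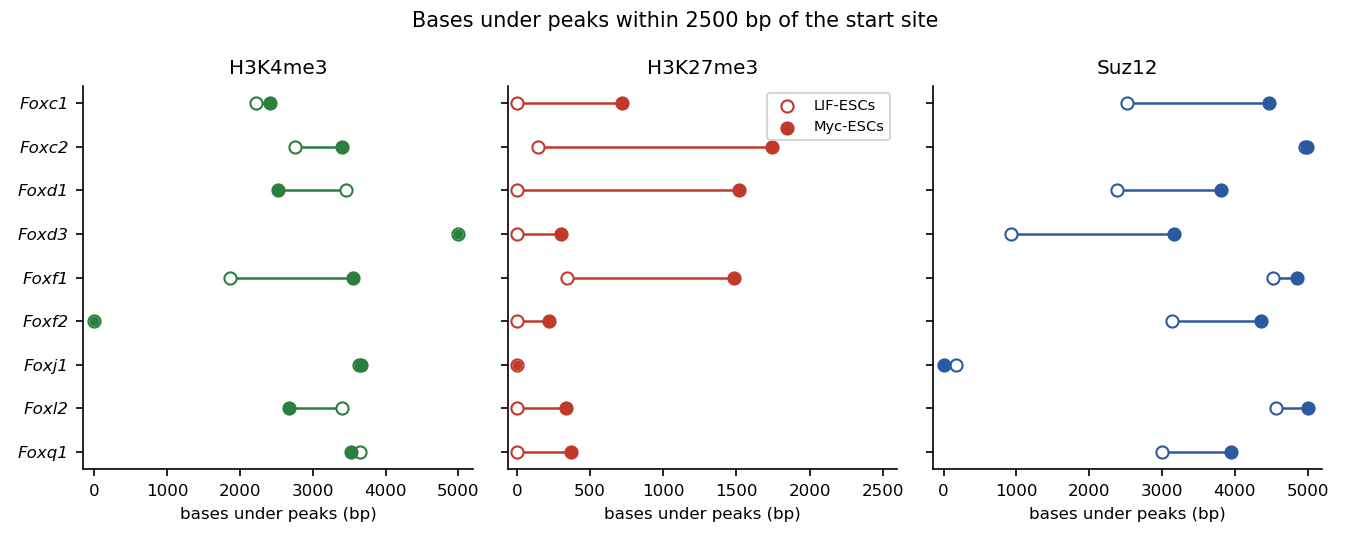
Bases under H3K4me3, H3K27me3 and Suz12 peaks (bp, x axis, with a shorter scale for H3K27me3) within 2500 bp of the start site of each forkhead gene, open circles for LIF-ESCs and filled circles for Myc-ESCs, 1 peak list each. H3K27me3 went from 0 to between 220 and 1517 bp at 6 genes, Foxj1 had none in either culture, and Foxf2 had no H3K4me3 in either.

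The number of bases under peaks showed how far each gene was covered. For H3K27me3, Foxc2 went from 148 bp in LIF-ESCs to 1742 bp in Myc-ESCs and Foxf1 from 346 to 1482 bp, so both genes marked in both cultures had more in Myc-ESCs, as in 89.0% of the 808 genes with the mark in both. From 0 bp in LIF-ESCs, Foxd1 reached 1517 bp, Foxc1 716 bp, Foxq1 372 bp, Foxl2 337 bp, Foxd3 305 bp and Foxf2 220 bp, while Foxj1 stayed at 0. The median over the 9 genes went from 0 to 372 bp. Foxc2, Foxd1 and Foxf1 formed an upper group of 3, each with over 90% of the 2196 genes that have 1 start site and Suz12 in both cultures below it, whereas Foxf2 and Foxd3 lay near the middle of those genes, above 45.3% and 51.6% of them.

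Suz12 coverage was larger, and it was greater in Myc-ESCs in 8 of the 9 windows, all but that of Foxj1. These are 8 of the 8 with Suz12 in both cultures, against 81.4% of the 2822 such genes. Foxc1 went from 2514 to 4473 bp, Foxd1 from 2381 to 3804 bp, Foxf2 from 3131 to 4361 bp and Foxq1 from 2994 to 3948 bp. Foxd3 had the least Suz12 of those 8 in LIF-ESCs, 931 bp, and differed most, with 3169 bp in Myc-ESCs. Foxc2, Foxf1 and Foxl2 were nearly filled already, with 4961, 4532 and 4560 bp under LIF, and reached 4993, 4856 and 5001 bp in Myc-ESCs. The median difference between the cultures was 954 bp over the 9 genes and 471.5 bp over the 2196 genes with 1 start site and Suz12 in both. Foxj1 is among the 9 but not the 2196.

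H3K4me3 did not follow the same course. Its coverage was greater in Myc-ESCs at 4 of the 9, lower at 3 and equal at 2. Of the 8 with the mark it was greater at 4, against 65.0% of the 15958 genes with it in both cultures. It was greater at 84.4% of the 2196 genes with 1 start site and Suz12 in both cultures. Foxj1 is among the 4 but not in that set, which leaves Foxc1, Foxc2 and Foxf1 for the comparison. Foxd3 counted as equal with its window filled, at 5001 bp in both cultures. Foxf1 went up from 1859 to 3556 bp, Foxc2 from 2750 to 3398 bp and Foxc1 from 2221 to 2412 bp. Foxd1 went down from 3451 to 2526 bp and Foxl2 from 3400 to 2676 bp, although within 5000 bp of the start site Foxl2 went up, from 3400 to 4466 bp. Foxq1 and Foxj1 changed by little, from 3651 to 3522 bp and from 3632 to 3666 bp.

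**Figure D2:**
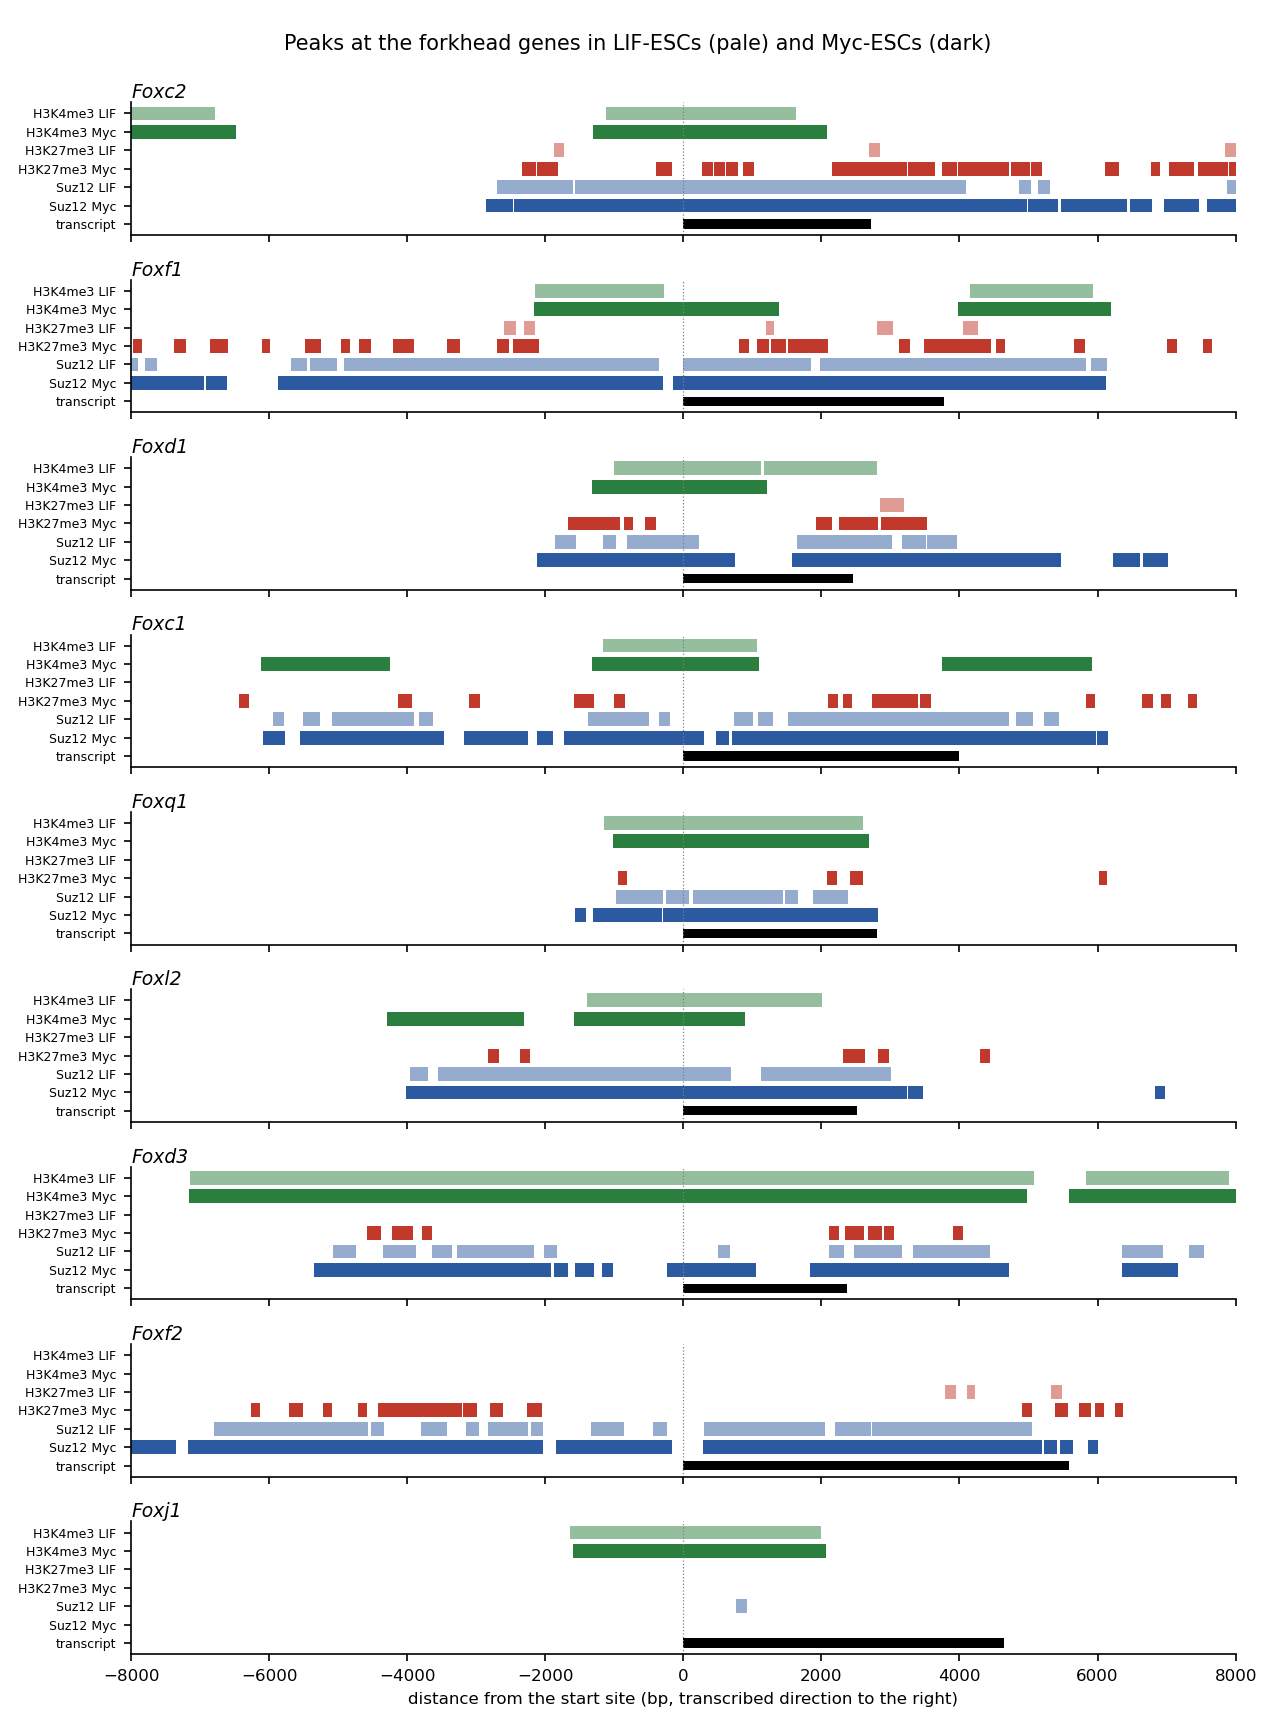
Peaks within 8000 bp of the start site of each forkhead gene (x axis, distance in bp, transcription to the right), with a row per antibody and culture, pale for LIF-ESCs and dark for Myc-ESCs, and the transcript as a black bar. Myc-ESC H3K27me3 peaks lie on either side of the start site at 8 genes and over the transcript's 3' end at 5 of them, Foxf2 has no H3K4me3, and Foxj1 has no Polycomb peak in Myc-ESCs.

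As at most genes with the mark, the H3K27me3 peaks did not cover the start sites themselves. In Myc-ESCs 31 peaks overlapped the 8 windows, 12 upstream and 19 downstream of the start site, and none covered a start site, as was true of the 4 LIF-ESC peaks. Among all genes with the mark in the window, 3.84% had the start site itself under a peak in Myc-ESCs and 2.60% in LIF-ESCs. Only Foxc2 and Foxd1 had a Myc-ESC peak within 500 bp of the start site, 2 of the 8 genes with H3K27me3, or 25.0%, against 28.1% of the 1572 genes with 1 start site, Suz12 in both cultures and H3K27me3 in Myc-ESCs, a share near the background. The start site lay under a Suz12 peak at 5 of 9 genes in LIF-ESCs and at 7 of 8 in Myc-ESCs, against 39.5% and 48.9% of the genes with that peak. For H3K4me3 the counts were 7 of 8 and 8 of 8, against 95.0% and 95.2%.

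Downstream, H3K27me3 lay more often late than early in the window. Foxj1 lacks the mark and so has no counterpart among the 1572 genes, which leaves 8 to compare. Between 500 and 1500 bp downstream of the start site, 2 of the 8 had a Myc-ESC peak, Foxc2 and Foxf1, against 58.5% of the 1572 genes. Between 1500 and 2500 bp downstream, 7 of the 8 had such a peak, against 58.7%, and between 1500 and 2500 bp upstream 6 of the 8, against 44.0%. The transcripts of the 9 genes are 2373 to 5591 bp long, so at the longer ones, among them Foxc1 and Foxf1, the end lies beyond the window and was looked at separately. A Myc-ESC H3K27me3 peak came within 500 bp of the transcript's end at 8 of the 8 genes and lay over the end itself at 5, Foxc2, Foxd1, Foxd3, Foxf1 and Foxl2. Among the 1572 genes 21.6% had a peak that near to the end, and among the 336 of them with a transcript of 2000 to 6000 bp, 50.6%. When peaks scoring below 100 were left out, or when the longer list was shortened to the length of the other by score, those 5 genes remained and Foxc1, Foxf2 and Foxq1 were lost. This count was made after the positions of the peaks had been seen. The 8 genes and the comparison genes alike were kept for a Myc-ESC H3K27me3 peak in the window. At Foxc2, Foxd1, Foxd3, Foxl2 and Foxq1 the peak near the end was itself a window peak, so the count is partly fixed by that choice. Transcript lengths were not matched more closely than 2000 to 6000 bp.

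**Figure D3:**
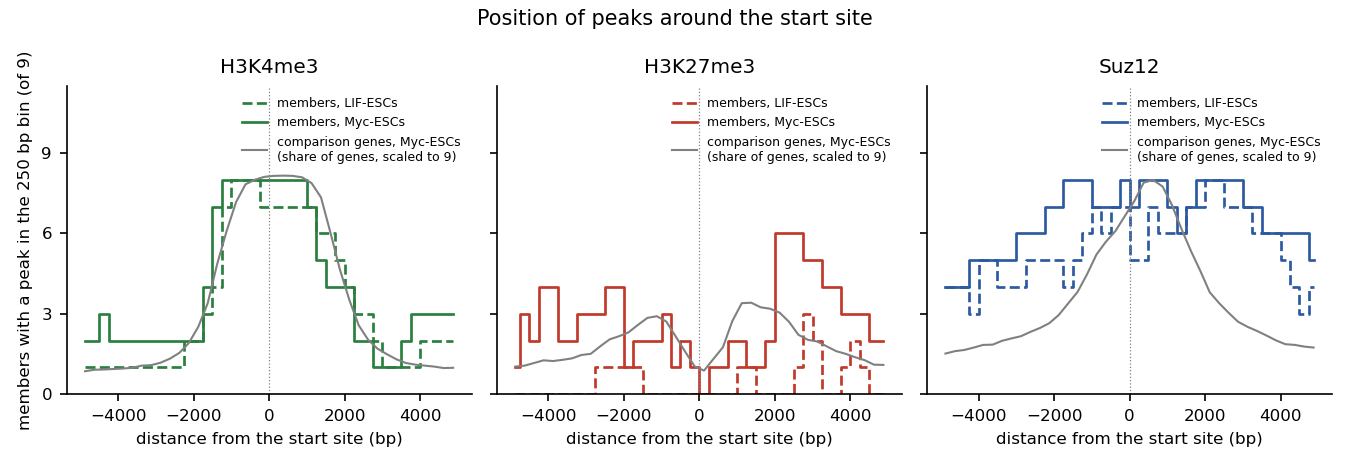
Number of forkhead genes (of 9, y axis) with a peak in each 250 bp bin by distance from the start site (x axis, bp), broken line for LIF-ESCs and solid line for Myc-ESCs, with a grey line for the 1572 genes with 1 start site, Suz12 in both cultures and H3K27me3 in Myc-ESCs, as a share of genes scaled to 9 (Foxj1, which lacks H3K27me3, is not among them). H3K4me3 centres on the start site, and Myc-ESC H3K27me3 is highest from 2000 bp downstream, where 6 genes had a peak.

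Every base under these H3K27me3 peaks was also under a Suz12 peak of the same culture, 587 of 587 bp in LIF-ESCs and 8092 of 8092 bp in Myc-ESCs. In the whole lists, 45.2% of the H3K27me3 bases of LIF-ESCs and 48.8% of those of Myc-ESCs lay under Suz12. Of the peaks, 46.2% and 48.0% touched a Suz12 peak. The whole lists are not limited to windows that carry Suz12, as those with H3K27me3 here all do, so the shares are not alike. The share in the windows of other Suz12-bound genes was not measured. Inside the windows, 83.5% of the bases under Myc-ESC H3K27me3 were under Suz12 in LIF-ESCs as well, and 44.9% were under H3K4me3 in Myc-ESCs. At Foxd3 and Foxq1 all of the H3K27me3 bases, 305 and 372 bp, were also under the H3K4me3 peak. At Foxf2 none were.

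The peaks of the 2 histone marks differed in their sequence. Peaks in the windows held a median of 7.64 CpG per 100 bp for H3K4me3 in Myc-ESCs, 4.58 for Suz12 and 1.87 for H3K27me3, where the medians over the whole lists were 2.53, 2.99 and 0.822. Foxc1 shows the contrast at close range. Of its promoter, the 250 bases before the start site at chr13:31806396-31806645 lie under H3K4me3 in both cultures and hold 29 CpG, in capitals below. The stretch called as H3K27me3 in Myc-ESCs at chr13:31805062-31805345, which ends 1301 bp upstream of the start site, holds 5 CpG in 284 bp. Both are read from the plus strand of GRCm38, on which the gene lies.
Foxc1 promoter: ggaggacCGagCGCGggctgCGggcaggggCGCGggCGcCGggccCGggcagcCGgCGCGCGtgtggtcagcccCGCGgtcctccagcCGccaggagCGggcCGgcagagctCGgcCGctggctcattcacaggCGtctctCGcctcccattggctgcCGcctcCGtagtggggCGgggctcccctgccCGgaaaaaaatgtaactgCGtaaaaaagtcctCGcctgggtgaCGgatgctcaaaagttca
Foxc1 Myc-ESC H3K27me3 peak: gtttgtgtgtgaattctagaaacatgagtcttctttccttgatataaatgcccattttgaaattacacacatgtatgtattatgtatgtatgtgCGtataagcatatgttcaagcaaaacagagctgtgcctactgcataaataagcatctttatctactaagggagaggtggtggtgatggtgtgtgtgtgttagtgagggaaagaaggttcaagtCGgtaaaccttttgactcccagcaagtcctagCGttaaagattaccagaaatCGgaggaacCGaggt

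Foxc2, which is needed for lymphatic vessels and valves, and Foxf1, which acts in the mesenchyme of lung and gut, were the genes with H3K27me3 in both cultures. Foxc2 (chr8:121116171-121118895, 1 exon) had 3 LIF-ESC H3K27me3 peaks within 10000 bp of its start site, with scores of 58.75 to 66.73, and 21 in Myc-ESCs. The score is that of the peak caller, which rises as the p-value falls and has a lower limit of 50 in these lists. The Myc-ESC peak over the end of the 3' UTR was 1090 bp long, scored 598.71 and ranked 135 of 16717 peaks. The LIF-ESC peak that it covered was 166 bp long and scored 66.73. Foxf1 (chr8:121084386-121088154, 2 exons) had 6 LIF-ESC peaks within 10000 bp and 28 in Myc-ESCs. Its strongest also lay over the 3' end, 971 bp long with a score of 580.06.

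H3K4me3 at Foxf1 reached farther into the gene in Myc-ESCs. In LIF-ESCs the peak of 1859 bp ended upstream of the Foxf1 start site, the sole start site among the 8 with H3K4me3 that the mark did not cover there. In Myc-ESCs a peak of 3556 bp covered both the Foxf1 start site and that of Fendrr, a noncoding RNA that starts 1276 bp away and is transcribed in the opposite direction. The window of Foxf1 therefore holds 2 start sites, and peaks there cannot be assigned to either gene.

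Foxd1, a factor of the kidney stroma, showed the converse. It lies at chr13:98354245-98356705 in 1 exon. In LIF-ESCs 2 H3K4me3 peaks together covered 3451 bp of its window, and in Myc-ESCs 1 peak of 2526 bp remained around the start site. Of the window's 1517 bp under H3K27me3 in Myc-ESCs, 486 bp had been under H3K4me3 in LIF-ESCs and were not under it in Myc-ESCs. No such base was found at any of the other 8 genes. The call of H3K27me3 at Foxd1 in Myc-ESCs only depended on the window. A LIF-ESC peak of 348 bp, the highest-scoring of the 14 LIF-ESC peaks near the 9 genes at 168.41 and ranked 102 of 3120, began 2843 bp downstream of the start site.

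Foxl2, the factor that maintains granulosa cells of the ovary, had in Myc-ESCs a second H3K4me3 peak of 1987 bp that lies mostly beyond the start-site window, while Suz12 filled its window with 5001 bp. Its gene (chr9:98955607-98958126, 1 exon) starts 297 bp from Foxl2os, a noncoding RNA on the other strand, and H3K4me3 and Suz12 peaks covered both start sites in each culture. Only 337 bp were under H3K27me3 in Myc-ESCs, at scores of up to 110.42, and the nearest LIF-ESC H3K27me3 peak lay 909987 bp from the transcript's end.

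Foxc1, which shapes the eye, skull and vasculature, and Foxq1, known for its part in hair formation, had no LIF-ESC H3K27me3 peak within 10000 bp. Foxc1 (chr13:31806646-31810635, 1 exon) had 13 Myc-ESC peaks in that range, the strongest 664 bp long in the 3' UTR with a score of 297.86. Foxq1 (chr13:31558170-31560976, 1 exon) had 4, with scores of up to 71.12, so its H3K27me3 call was lost when peaks scoring below 100 were left out.

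Foxd3, a factor of neural crest cells that is also needed in the pluripotent epiblast, had the broadest H3K4me3. A single H3K4me3 peak, of 12236 bp under LIF and 12140 bp in Myc-ESCs, covered the whole gene (chr4:99656299-99658671, 1 exon) and the full 5001 bp of the window, which 99.0% of the 2196 Suz12-bound genes with 1 start site did not reach in LIF-ESCs. Under it, Suz12 in LIF-ESCs was broken into short peaks, the one nearest to the start site 177 bp long with a score of 58.92. In Myc-ESCs a Suz12 peak of 1292 bp with a score of 700.83 covered the start site. A further Suz12 peak, of 3435 bp, lay upstream of it. Of the 5 forkhead genes in the RefSeq promoter table of GRCm38.p6 (Foxc1, Foxd1, Foxd3, Foxf2 and Foxl2), Foxd3 alone held CACGTG, the core of the E-box bound by Myc, in the 300 bases from 250 before to 50 after the start site. The letters read the same on both strands, and 7.15% of 32851 promoters hold them. The upstream 250 bases of that promoter, chr4:99656049-99656298 on the plus strand, are shown because they hold the match, with CpG in capitals.
Foxd3 promoter: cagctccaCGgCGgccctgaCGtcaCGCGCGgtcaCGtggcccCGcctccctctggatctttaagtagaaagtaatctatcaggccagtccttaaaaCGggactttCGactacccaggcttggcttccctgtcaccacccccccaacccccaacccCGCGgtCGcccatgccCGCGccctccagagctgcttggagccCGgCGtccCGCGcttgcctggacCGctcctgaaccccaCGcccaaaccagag

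Foxf2, which acts in the mesenchyme of the gut and palate and in brain pericytes, was the exception for H3K4me3. No H3K4me3 peak lay in its window in either culture, as for 2.52% of the 2822 genes with Suz12 in both cultures, and the nearest was 53858 bp (LIF-ESCs) and 53993 bp (Myc-ESCs) away. Its promoter nonetheless held 27 CpG in 300 bases, against a median of 7 over all promoters. The 250 bases upstream of the start site, chr13:31625566-31625815 on the plus strand, are given with CpG in capitals for comparison with those of Foxc1 and Foxd3, which lie under H3K4me3.
Foxf2 promoter: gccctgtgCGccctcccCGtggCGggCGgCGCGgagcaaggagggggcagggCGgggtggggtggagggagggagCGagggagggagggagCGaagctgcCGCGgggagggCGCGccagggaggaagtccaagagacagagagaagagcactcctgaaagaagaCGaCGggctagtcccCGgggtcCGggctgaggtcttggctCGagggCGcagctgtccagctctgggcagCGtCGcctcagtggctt

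The H3K27me3 peaks of both cultures overlapped in part at Foxf2. In LIF-ESCs 3 peaks lay inside the gene (chr13:31625816-31631406, 2 exons), 2 in the intron and 1 in the 3' UTR, and covered 440 bp. In Myc-ESCs no peak overlapped either intron peak, with LIF-ESC scores of 66.8 and 87.89, a peak shared 107 bp with that of the 3' UTR, and 331 bp of the body were marked. There were 17 Myc-ESC peaks within 10000 bp, and the strongest, 815 bp with a score of 342.45, lay upstream at -4429 to -3615 bp from the start site, where LIF-ESCs had none. With the single window peak scoring 58.72, Foxf2 too lost its call under the stricter score. Of the 14 LIF-ESC H3K27me3 peaks within 10000 bp of the 9 genes, 11 were overlapped by a Myc-ESC peak, and the 3 without one were both intron peaks of Foxf2 and a 3' UTR peak of Foxf1. Over the whole list, 51.6% of LIF-ESC peaks were overlapped.

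Foxj1, the master regulator of motile cilia, stood apart. It lies on the minus strand at chr11:116330704-116335354 in 3 exons. It had an H3K4me3 peak around its start site in both cultures, of 3632 and 3666 bp, no H3K27me3 peak in either culture, and a Suz12 peak of 166 bp in LIF-ESCs only, with a score of 61.18. The nearest Suz12 peak in Myc-ESCs was 51595 bp away. A Suz12 peak in LIF-ESCs only was found at 1.28% of all genes.

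Over longer distances the Suz12 peaks formed domains. These are chains of peaks with gaps of at most 1000 bp, around the start site or nearest to it in the window. Domains were longer in Myc-ESCs at all 8 genes with Suz12 in both cultures. They were not measured at other genes, so no background share stands beside this count. Bases under Suz12 in the window were greater in Myc-ESCs at 81.4% of the 2822 genes with Suz12 in both cultures. At Foxc1 the domain went from 6829 to 12240 bp, at Foxf1 from 11815 to 18086 bp and at Foxf2 from 11847 to 17107 bp. At Foxc2 it went from 8016 to 16751 bp and came to include Foxl1. At Foxd1 it went from 2077 to 9140 bp and at Foxd3 from 177 to 10074 bp. At both genes further LIF-ESC Suz12 peaks lay beyond gaps of more than 1000 bp and were left out. The LIF-ESC domain of Foxd3 was 1 peak. Suz12-covered bases within 10000 bp of these start sites differed less between the cultures than the domain lengths. They rose from 4292 under LIF to 9016 at Foxd1, and from 5384 to 9032 at Foxd3. At the 6 genes named so far, LIF-ESC peaks that lay more than 1000 bp apart fell within 1 chain in Myc-ESCs. Foxl2 and Foxq1 changed least, from 6965 to 7476 bp and from 3358 to 4400 bp. Within 10000 bp of the 9 start sites, 74 Suz12 peaks covered 58020 bp in LIF-ESCs and 57 peaks covered 83271 bp in Myc-ESCs, so there were fewer peaks over more bases. H3K27me3 went from 14 peaks over 2423 bp to 109 peaks over 25759 bp. The whole H3K27me3 lists went from 3120 peaks over 0.690 Mb to 16717 peaks over 3.81 Mb, and the whole Suz12 lists from 11305 peaks over 6.22 Mb to 13907 over 9.38 Mb.

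The genes also lie in groups. Foxf1, Foxc2 and Foxl1 stand within 46259 bp on chromosome 8, with Mthfsd between Foxf1 and Foxc2. Of this stretch, Suz12 peaks covered 37.3% under LIF and 48.2% in Myc-ESCs, and H3K27me3 peaks 2.28% and 21.7%, in 6 and 38 peaks. H3K4me3 went from 20.0% to 31.6%. Foxq1, Foxf2 and Foxc1 are spread over 252466 bp on chromosome 13, with 67646 bp between the start sites of Foxq1 and Foxf2 and 180830 bp between those of Foxf2 and Foxc1. There, Suz12 covered 7.26% and 10.7%, and H3K27me3 0.174% and 2.49%. In both groups the peaks of Suz12 and H3K27me3 lay around the forkhead genes, as the map of both groups shows. Members of a group share a neighbourhood and are not independent of each other.

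**Figure D4:**
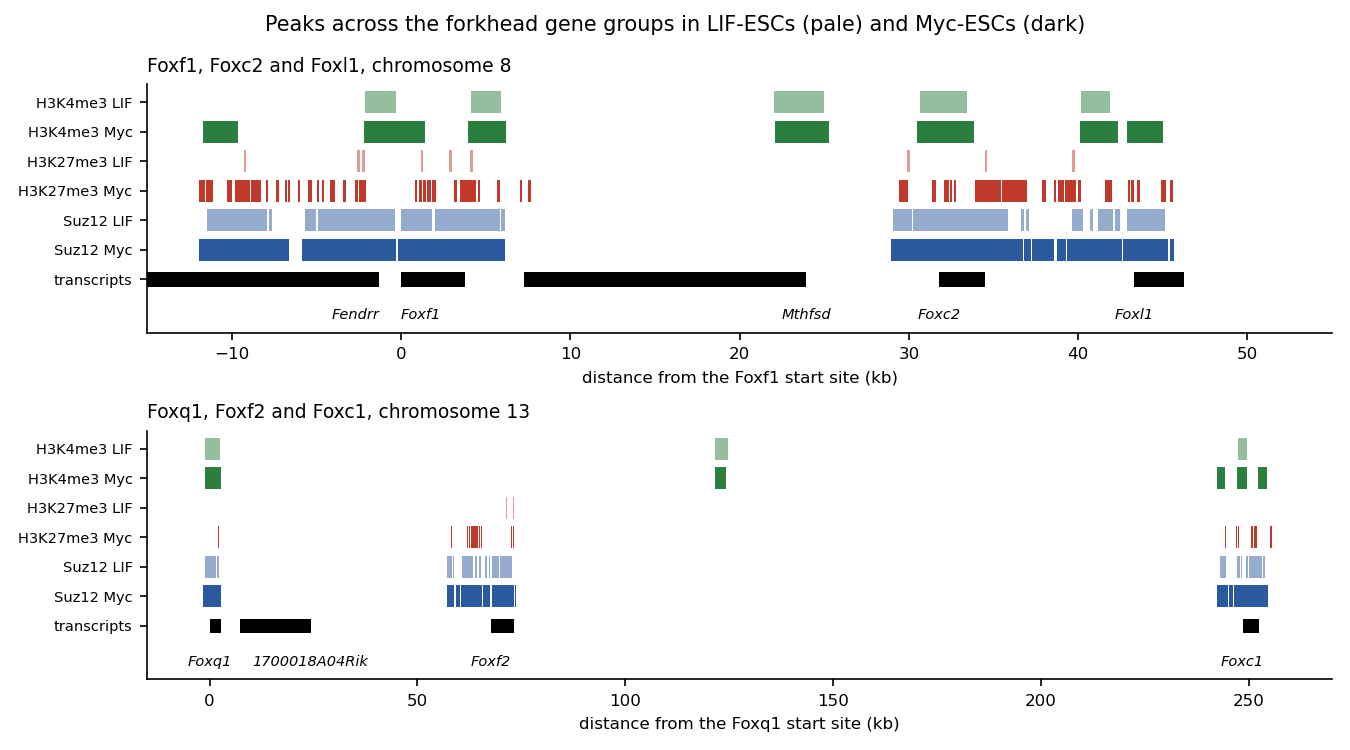
Peaks of each antibody in LIF-ESCs (pale) and Myc-ESCs (dark) across the forkhead gene groups of chromosome 8 (top) and chromosome 13 (bottom), by distance in kb from the Foxf1 or Foxq1 start site, with transcripts in black. H3K27me3 covered 2.28% of the stretch from Foxf1 to Foxl1 in LIF-ESCs and 21.7% in Myc-ESCs.

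Other forkhead genes were sorted into 2 lists, those known to act in particular lineages and those known to be broadly expressed. Earlier results of these data were known when the lists were made. The peak lists hold no expression values to check that sorting, and the calls varied within each list. Of 23 further genes known to act in particular lineages, 14 had Suz12 in both cultures, H3K27me3 marked 4 under LIF and 13 in Myc-ESCs, and 9 had it in Myc-ESCs only. The combination most frequent among the 9 genes was shared by 7 of the 23, namely Foxa1, Foxd4, Foxe1, Foxi2, Foxi3, Foxl1 and Foxp2. The most Myc-ESC H3K27me3 among the rest was at Foxe3 with 1476 bp, Foxa2 with 1398 bp and Foxd2 with 1349 bp. Another 6 of the 23 had H3K4me3 in both cultures without Suz12 or H3K27me3, and 3 (Foxi1, Foxn1 and Foxp3) had no peak in any list. Of 12 broadly expressed forkhead genes, 11 had H3K4me3 in each culture and 7 had it without Suz12 or H3K27me3. Suz12 was found at 2 of the 12 in LIF-ESCs and 4 in Myc-ESCs, H3K27me3 at 1 (Foxp1) and 2 (Foxp1 and Foxj2), and none shared the combination. In Myc-ESCs Foxj1, too, had H3K4me3 without either.

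Outside the family, the genes whose 6 values of bases under peaks were nearest to the median of the 9 were Mn1, Irf2, Mab21l1, Vwc2 and Slc30a3, at distances of 0.302, 0.430, 0.440, 0.510 and 0.520 over the 6 lists on the log2(bp + 1) scale. Mn1, the nearest, had 3220 and 3790 bp of H3K4me3, 0 and 350 bp of H3K27me3 and 2683 and 3888 bp of Suz12 in the respective LIF-ESC and Myc-ESC lists. The same pattern of calls was thus also found outside the forkhead family.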

How the data were processed

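ChIP-sequencing was run for H3K4me3, H3K27me3 and Suz12. The authors aligned reads to GRCm38, kept those with a unique best match and ran MACS with its defaults to call peaks over background. The submitters' processing notes name Bowtie2 2.2.3 and MACS 1.4.2. Each of the 6 deposited lists gives peak positions and a score, read here as MACS's p-value on a log scale. Whether libraries were pooled is not given in the sources used here.

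Peaks were intersected with Python 3.11.15, pandas 2.3.3 and numpy 2.4.6, by code tested first on simulated intervals, where 0 of 8000 comparisons departed from a plain loop. A gene was marked when at least 1 bp of a peak fell within 2500 bp of a start site of its curated RefSeq transcripts (45756 transcripts). The same peaks were counted over gene bodies. Sequences come from RefSeq and GRCm38, read with pysam 0.24.0, and figures were drawn with matplotlib 3.10.9.

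All 9 genes are named. Other forkhead genes are named where they share the most frequent combination of calls, and up to 4 more by bases under Myc-ESC H3K27me3, of which 1 is not reported here. The 5 genes outside the family with the nearest values are named, as are neighbours under a shared peak. Genes and lists were chosen with earlier results of these data known. The count at transcript ends and its alternatives were chosen after seeing the data. Alternatives were windows of 1000 and 5000 bp, omission of peaks scoring below 100, equal list lengths for both cultures (the top-scoring peaks of the longer list) and GENCODE M21 start sites. No test was made, since the files used here hold 1 list for each culture and antibody and no values per library.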

Additional observations from a re-analysis of the deposited data

How the results depend on the processing

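With GENCODE start sites all 12 counts and medians kept their values within 1.5 times. The values of Foxq1 moved more. Its H3K27me3 in Myc-ESCs was 141 bp in place of 372. In LIF-ESCs its H3K4me3 was 1615 bp in place of 3651 and its Suz12 1337 bp in place of 2994. With lists limited to the same number of peaks, or peaks of a score of at least 100, the median H3K27me3 in Myc-ESCs was 193 bp in place of 372, 6 of 9 genes kept a call (Foxf2 and Foxq1 lost theirs), and the count at transcript ends was 5 in place of 8. The higher score left 0 genes with H3K27me3 in LIF-ESCs in place of 2. It left 8 with Suz12 in LIF-ESCs in place of 9, as Foxj1 lost its only Suz12 peak. Equal lists left 4 genes with H3K27me3 in Myc-ESCs only in place of 6, namely Foxc1, Foxd1, Foxd3 and Foxl2. The window of 5000 bp also left 4, namely Foxc1, Foxd3, Foxl2 and Foxq1. The higher score also gave 6, but not the same genes. Foxf2 and Foxq1 were lost, and Foxc2 and Foxf1 entered because their LIF-ESC calls were lost. The window of 1000 bp gave 5, namely Foxc1, Foxc2, Foxd1, Foxf1 and Foxq1. Of the 6 genes of the main setting, Foxc1 alone was marked in Myc-ESCs only under every setting. A window of 1000 bp on either side left 0 genes with H3K27me3 in LIF-ESCs and 5 in Myc-ESCs in place of 8, and gave medians of 141 bp for H3K27me3 in Myc-ESCs and of 1068 and 1770 bp for Suz12 in LIF-ESCs and Myc-ESCs, in place of 2994 and 4361. A window of 5000 bp marked 4 genes with H3K27me3 in LIF-ESCs, adding Foxd1 and Foxf2, and gave medians of 1882 bp for H3K27me3 in Myc-ESCs and 6217 and 7832 bp for Suz12. Medians of bases depend on the window by construction, as fewer or more bases are read.

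No list is given per library, so the spread between replicates is unknown. The Myc-ESC H3K27me3 list is longer than the LIF-ESC list genome-wide, the part of sequencing depth in that was not tested, and peaks missing from a list were not detected at its depth, which is not the same as absent. No paired analysis was possible because no list exists per replicate.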
